A study of Mus musculus with 8 samples.

Results

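The histone genes, canonical and variant, were the genes of the deposited table whose symbol starts with Hist and a digit, H1f, or H2a, H2b, H3 or H4 followed by a letter or digit. The rule matched 102 of the 22322 genes of the table. Symbols of the major histocompatibility complex, which start with H2 and a hyphen, stayed out, as did Cenpa, Macroh2a1 and Macroh2a2, whose symbols do not follow the pattern. RNA was sequenced from 8 mouse kidney samples with the label primary renal fibroblasts. Adenovirus was given to all of them, coding for GFP in 4 (Ad-GFP, genotype label WT) and for Cre recombinase in 4 (Ad-Cre, genotype label suv39h1 knockdown). TGF-β, 5 ng/ml over 48 hours, was added to all 8, so the comparison holds no unstimulated cells. Suv39h1 encodes a histone H3 lysine methyltransferase of heterochromatin. The labels name neither a mouse age or strain nor a floxed allele, and none states whether the replicates are separate cultures or animals. The p-values therefore measure the spread among these libraries, and that spread may be technical.

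Nucleosomes hold DNA wrapped around the core histones H2A, H2B, H3 and H4, and the linker histone H1 binds where DNA enters and leaves. Canonical histones are encoded by clustered, mostly intronless genes that are transcribed mainly in S phase, and their mRNAs normally end just after a stem-loop bound by SLBP (the stem-loop-binding protein) rather than in a poly(A) tail. Replacement variants, such as H3.3 and H2A.Z, are made throughout the cell cycle from polyadenylated mRNAs and enter chromatin outside replication. The protocols give total RNA as the starting material. They do not state whether poly(A) RNA was selected.

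The members fell into 64 clustered genes, 8 replacement-variant genes and 30 genes of the germ-cell (testis and oocyte) groups. Counts were found for 71 of the 102 members, and 31 were at 0 in all libraries. Of the 31, 5 were nevertheless listed at 0.04 FPKM in 1 library, so the deposited counts are not fully interchangeable with the FPKM values. Only 33 members had enough counts to be tested, namely 25 clustered and all 8 replacement genes. The other 38 members with counts reached at most 17 counts in a library, and the 30 germ-cell genes had 0 tested members. The 33 tested members are therefore the abundant ones and do not stand for the whole set.

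The 3′ stem-loops are shown because they are the element that sets canonical histone mRNAs apart. The pattern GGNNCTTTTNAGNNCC was searched on the transcript strand downstream of the stop codon in the GENCODE M21 models (GRCm38), where all 102 members were found. It occurred in 19 of the 25 tested clustered genes, in 24 of the 39 untested ones and in 1 of the 8 replacement genes, H2ax. Capitals mark the stem-loop, and each line runs 5′ to 3′ in the sense of the mRNA.

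H4c9: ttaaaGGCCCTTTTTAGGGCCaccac
H4c8: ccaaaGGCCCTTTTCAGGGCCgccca
H3c3: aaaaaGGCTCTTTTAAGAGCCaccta
H3c14: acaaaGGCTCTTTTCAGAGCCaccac
H1f2: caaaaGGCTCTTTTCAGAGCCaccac
H2ax: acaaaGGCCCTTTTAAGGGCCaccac

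The stem-loop of H4c9 lies at chr13:22040966-22040981 on the minus strand, 31 bases after the stop codon, and that of H4c8 at chr13:23531458-23531473 on the plus strand. The H3c3 element is at chr13:23745047-23745062 on the minus strand. Those of H3c14, H1f2 and H2ax are on the plus strand, at chr3:96247327-96247342, chr13:23739512-23739527 and chr9:44335240-44335255. What follows the loop differs between these genes. The annotated model of H4c8 ends 46 bases after it. The models of H1f2 and H3c14 run on for 840 and 1167 bases and hold the poly(A) signal AATAAA 815 and 1145 bases after the loop. Among the clustered genes, AATAAA was present in the annotated 3′ UTR of 13 of the 25 tested genes and of 5 of the 39 untested ones. Median model length was 1156 bases in the tested and 480 bases in the untested genes, and a longer UTR holds a 6-letter word more often. The H4c1, H1f5 and H2bc21 models held no match, and the H1f5 model has no 3′ UTR.

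Per length, replacement genes and a few clustered genes made up most of the histone FPKM in these libraries. Whether poly(A) RNA was selected is not stated, so mRNAs without a tail may be under-represented. The shares below, the low H4 sum and the levels of clustered genes may therefore not be those of the cells. H3f3a and H3f3b, which both encode H3.3, stood at 288 ± 8.24 and 277 ± 5.87 FPKM in Ad-GFP (SD, n = 4) and together took 97.9% ± 0.226 of the FPKM of all 14 H3 genes, against 97.7% ± 0.0857 in Ad-Cre. H1f2 (H1.2) and H1f0 (H1.0, a linker histone that builds up in non-dividing cells) took 58.7% ± 1.07 and 38.9% ± 1.13 of the H1 FPKM in Ad-GFP. H2bc4, a clustered H2B gene whose 3′ UTR model holds AATAAA, took 86.0% ± 1.88 of the H2B FPKM. H2az1, one of 2 H2A.Z genes, took 47.5% ± 0.875 of the H2A FPKM. The H4 family has no replacement gene in the table, and its 13 genes summed to 19.4 ± 1.92 FPKM in Ad-GFP, against 577 ± 12.8 for the H3 family. The replacement genes ranked by mean FPKM with the H3.3 pair first, then H2az1, H1f0, H2aj, H2ax, H2az2 and H1f10. H3f3a stood above H3f3b in Ad-GFP and below it in Ad-Cre (268 ± 12.1 against 272 ± 5.18 FPKM), so the first 2 places have no fixed order.

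**Figure D1:**
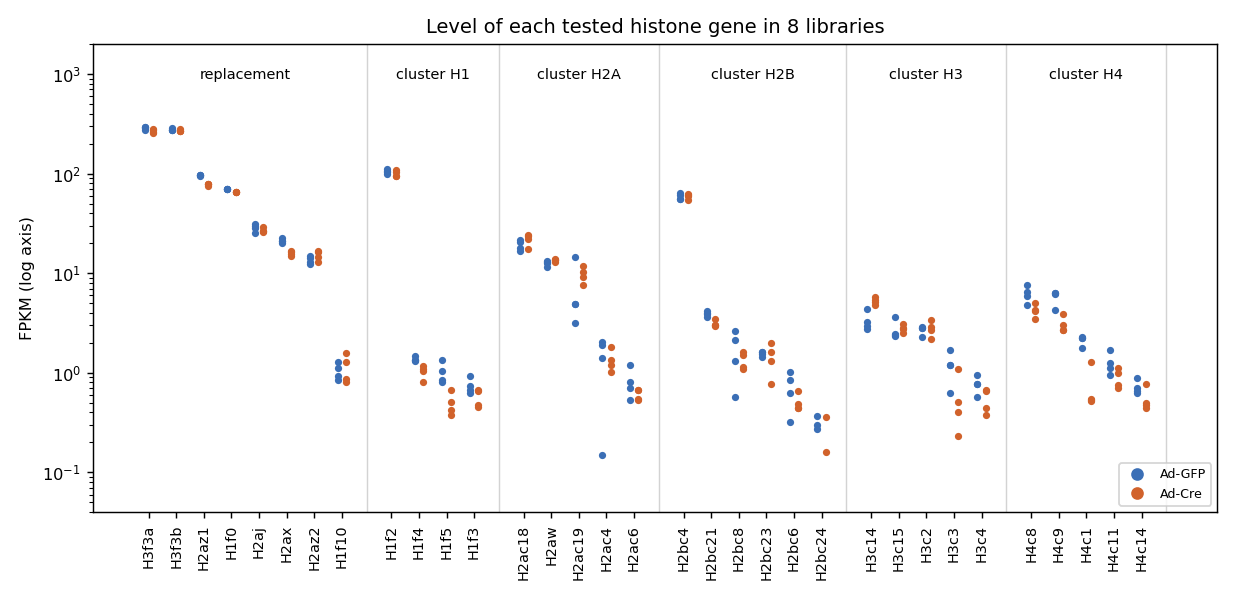
FPKM on a log axis of each of the 33 tested histone genes in the 4 Ad-GFP (blue) and 4 Ad-Cre (orange) libraries, ordered by level within each class, with values of 0 not drawn. H3f3a and H3f3b lie highest, and apart from H1f2, H2bc4 and 3 H2A genes the clustered genes lie below 10 FPKM.

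Ad-Cre libraries differed from Ad-GFP libraries in 12 of the 33 tested histone genes by edgeR's quasi-likelihood test (Benjamini-Hochberg adjusted p under 0.05 over 13337 tested genes). Of all tested genes, 40.3% passed that threshold, and the members' 36.4% is near this background. The members split into 10 lower and 2 higher in Ad-Cre, that is 30.3% and 6.06%, against 20.5% and 19.8% of all tested genes. The median log2 fold change was -0.25 over the 33 members and 0.0041 over all tested genes. Of the 33, 24 (72.7%) lay below 0, against 49.0% of all tested genes. Groups did not overlap in CPM for 10 members, 9 of them lower, where 35.4% of all tested genes had separate groups and 18.2% had them separate and lower. No test of the list was made.

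**Figure D2:**
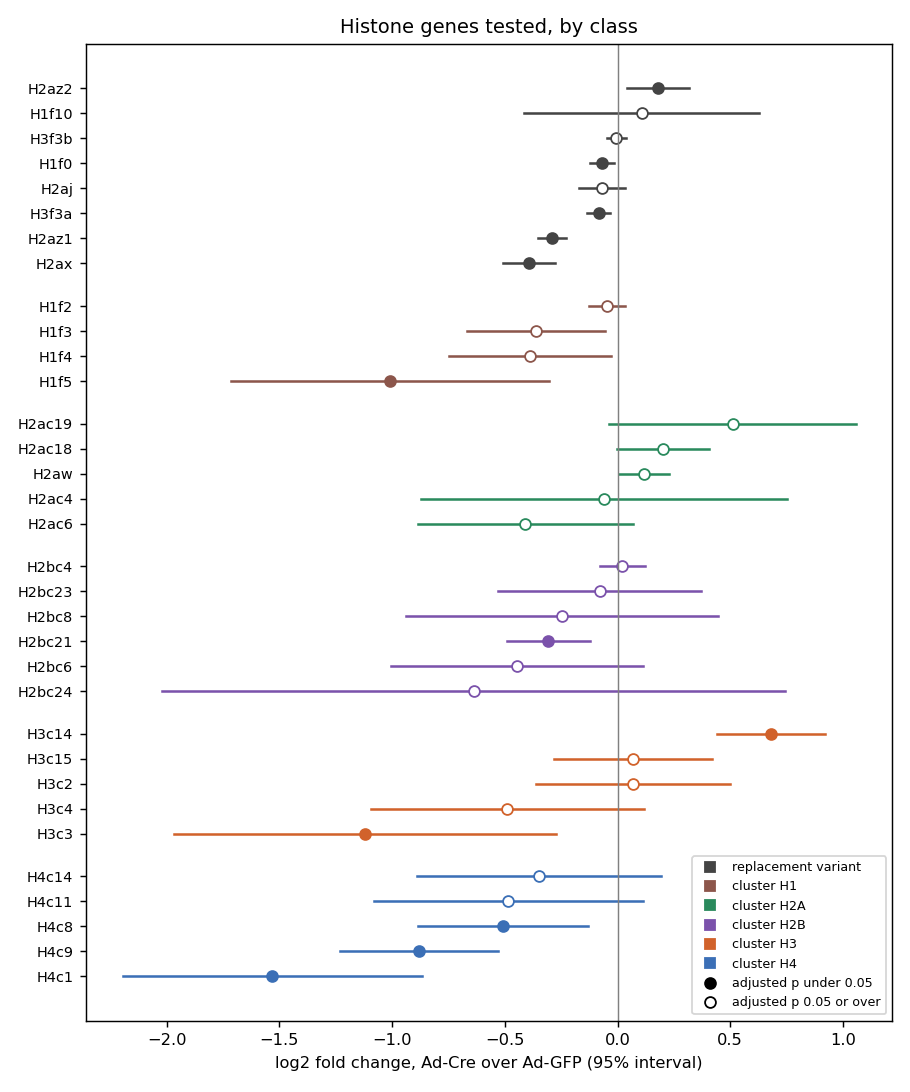
Log2 fold change of Ad-Cre over Ad-GFP with its 95% interval for the 33 tested histone genes, grouped by class, with filled points for an adjusted p under 0.05. All 5 tested H4 genes lie below 0, while H3c14 at 0.68 stands to the right of the other members.

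The 2 H2A.Z genes differed in direction, with a firm call for H2az1 and an unstable one for H2az2. H2A.Z marks promoters and enhancers and is deposited by the SRCAP and p400 complexes. H2az1 (chr3:137864487-137866922, plus strand, GRCm38) had 103.0, 102.0, 99.1 and 101.7 CPM in the Ad-GFP libraries and 84.1, 84.0, 83.1 and 81.0 CPM in the Ad-Cre libraries. The groups were well separated, and the fold was 81.8% of Ad-GFP (95% interval 78.4% to 85.4%, adjusted p = 1.82e-08). H2az2 (chr11:6427229-6444443, minus strand) stood at 15.83, 15.04, 15.07 and 15.13 CPM in Ad-GFP, against 17.5, 18.2, 15.7 and 17.7 CPM in Ad-Cre. The lowest Ad-Cre library lay just under the highest Ad-GFP one, and H2az2 rose to 113% (interval 103% to 125%, adjusted p = 0.0337). The call was lost without Ad-GFP replicate 2, 3 or 4 or without Ad-Cre replicate 1, 2 or 4, with adjusted p-values of 0.0616 to 0.109. It was also lost with upper-quartile scaling, the filter at 5 CPM, DESeq2 and limma on either FPKM scale (adjusted p = 0.0530 to 0.282, log2 fold change down to 0.12), so it held in 7 of 18 alternatives. The direction was the same in all 18.

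The ratio of H2az1 to H2az2 counts, computed after both values were seen, is free of library scaling. It was 6.51, 6.78, 6.58 and 6.72 in the Ad-GFP libraries and 4.80, 4.61, 5.29 and 4.58 in the Ad-Cre libraries. Every Ad-Cre ratio lay below every Ad-GFP ratio, with a difference of -0.47 in mean log2 ratio (exact two-sided permutation p = 0.0286, the smallest that 4 against 4 allows). The ratio shows unequal change of the pair and not which gene moved. H2az2 shares no 50-base word with another GENCODE gene, and H2az1 shares 16.9% of its words, mostly with the pseudogene Gm8203.

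**Figure D3:**
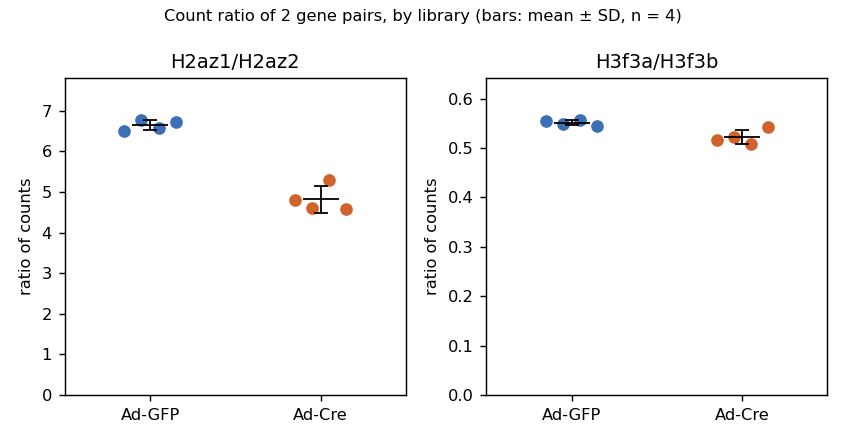
Ratio of read counts of H2az1 to H2az2 and of H3f3a to H3f3b in each library, with points for libraries and bars for the mean ± SD of 4 libraries. All Ad-Cre ratios of H2az1 to H2az2 sit between 4.58 and 5.29, below the Ad-GFP range of 6.51 to 6.78, while the H3.3 pair shifts by far less.

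H2ax, whose protein is phosphorylated at DNA breaks, is a replacement variant with both a stem-loop and a longer 3′ model. Its levels were 28.8, 27.3, 29.1 and 30.8 CPM in Ad-GFP, against 23.1, 21.7, 20.8 and 22.9 CPM in Ad-Cre. All Ad-Cre libraries lay below all Ad-GFP ones, and H2ax fell to 76.2% of Ad-GFP (interval 70.3% to 82.5%, adjusted p = 3.05e-06). Its exons are overlapped on the opposite strand by Gm44335 over 141 bases, and no source used here states whether counting used strand.

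The H3.3 genes and the linker histone H1f0 were nearly level. H3f3a (chr1:180800832-180813943, minus strand) had 302.2, 309.3, 303.4 and 293.3 CPM in Ad-GFP, against 279.0, 292.5, 276.9 and 291.8 CPM in Ad-Cre, which was 94.4% of Ad-GFP (interval 91.1% to 97.8%, adjusted p = 0.0092). The groups came within 1 CPM of each other without overlapping. H3f3b had 548 ± 11.1 CPM in Ad-GFP, against 546 ± 10.0 CPM in Ad-Cre, and its fold of 99.7% had an interval of 96.7% to 102.7% (adjusted p = 0.878). The ratio of H3f3a to H3f3b counts was 0.554, 0.549, 0.557 and 0.545 in Ad-GFP and 0.516, 0.522, 0.509 and 0.542 in Ad-Cre, a difference of -0.079 in mean log2 ratio (exact two-sided permutation p = 0.0286). This p-value too is the smallest that 4 against 4 allows, and the ratio was computed after both values were seen. With H3f3b level, the ratio restates the H3f3a difference. H3f3a is overlapped on the opposite strand by Gm17275 over 638 bases.

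H1f0 stood at 142.1, 141.8, 141.5 and 142.5 CPM in Ad-GFP, against 136.8, 134.5, 134.4 and 136.0 CPM in Ad-Cre. The groups were apart, but H1f0 fell only to 95.4% (interval 92.0% to 98.9%, adjusted p = 0.0336). Its call was lost without any 1 of the Ad-GFP libraries and without Ad-Cre replicate 2 or 3, with adjusted p-values of 0.0520 to 0.0803. H2aj, an H2A variant known from senescent cells, had 34.7 ± 1.88 CPM in Ad-GFP, against 33.0 ± 0.971 in Ad-Cre (adjusted p = 0.278). H1f10 lay between 1.0 and 1.92 CPM in every library (adjusted p = 0.768).

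H4 was the clustered family with the most calls, 3 of 5 tested genes, all lower, where 20.5% of all tested genes were lower. Only 5 of the 13 H4 genes could be tested, so this share rests on few genes. H4c9 (older symbol Hist1h4i, chr13:22040636-22041362, minus strand) had 4.59, 4.54, 3.07 and 4.44 CPM in Ad-GFP, against 1.96, 2.19, 1.97 and 2.85 CPM in Ad-Cre. The groups did not overlap, although Ad-GFP replicate 3 lay near the highest Ad-Cre library, and H4c9 fell to 54.2% (interval 42.5% to 69.2%, adjusted p = 0.000172). H4c1 (Hist1h4a, chr13:23760692-23761230, minus strand) had 1.204, 1.22, 0.946 and 1.19 CPM in Ad-GFP, against 0.280, 0.294, 0.288 and 0.680 CPM in Ad-Cre. Every Ad-Cre library was lower, with replicate 4 above the other three, and H4c1 fell to 34.6% (interval 21.8% to 54.8%, adjusted p = 0.000448).

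H4c8 (Hist1h4h, chr13:23531050-23531519, plus strand) had 2.75, 3.54, 3.01 and 2.19 CPM in Ad-GFP, against 1.62, 2.40, 1.97 and 2.04 CPM in Ad-Cre. The groups overlapped, since Ad-GFP replicate 4 lay below Ad-Cre replicate 2, and H4c8 fell to 70.3% (adjusted p = 0.0289). The call was lost without Ad-GFP replicate 2 or 3 or Ad-Cre replicate 1, 3 or 4, with adjusted p-values of 0.0536 to 0.135. H4c11 and H4c14 had log2 fold changes of -0.49 and -0.35 and did not pass (adjusted p = 0.191 and 0.309). All H4 genes encode the same protein and share coding sequence, so 28.9%, 40.4% and 45.8% of the 50-base words of H4c9, H4c1 and H4c8 also occur in other genes. No source used here states how the authors' counting placed such reads.

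Summed over all 13 H4 genes, a sum less exposed to how reads were split, the libraries gave 12.7, 13.1, 11.5 and 11.6 CPM in Ad-GFP, against 6.99, 8.16, 7.07 and 8.20 CPM in Ad-Cre. The groups were apart, with the Ad-Cre mean at 62.2% of the Ad-GFP mean. Without the 3 called genes, the other 10 summed to 4.05 ± 0.318 CPM in Ad-GFP, against 2.97 ± 0.293 in Ad-Cre, and the groups were still apart. In FPKM the same 10 genes overlapped between groups, at 6.47, 4.89, 5.94 and 4.0 against 4.67, 4.12, 3.91 and 3.54, whereas all 13 were apart at 62.2%. This sum by family was chosen after the gene values were seen, and it has no test.

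The 100 bases before the RefSeq start of the 3 called H4 genes (GRCm38.p6) are shown because these genes fell together. Capitals mark CCAAT (or its reverse complement ATTGG) and TGACGTCA, a palindrome known as the element of the CREB and ATF factors.

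H4c1: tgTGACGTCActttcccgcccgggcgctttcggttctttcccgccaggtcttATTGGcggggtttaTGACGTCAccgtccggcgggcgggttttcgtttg
H4c8: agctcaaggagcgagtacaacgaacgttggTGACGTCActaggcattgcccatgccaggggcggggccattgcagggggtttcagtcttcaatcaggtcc
H4c9: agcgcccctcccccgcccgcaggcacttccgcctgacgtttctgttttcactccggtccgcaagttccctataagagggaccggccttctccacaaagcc

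These stretches are chr13:23761250-23761349 on the minus strand, chr13:23530944-23531043 on the plus strand and chr13:22041363-22041462 on the minus strand. TGACGTCA, picked for the search after these sequences were seen, was present in the 250 bases before the start of 2 of the 12 clustered H4 genes with a promoter entry (H4c1 and H4c8), of 1 of the 17 clustered H2A, 1 of the 14 H2B, 0 of the 10 H3 and 0 of the 5 H1 genes, and of 1.77% of all 27025 promoters. CCAAT on either strand was present in 3 of the 12 H4 promoters, in all 17 clustered H2A, all 14 H2B and all 5 H1 promoters, and in 37.5% of all promoters. ATTTGCAT, the octamer known from H2B promoters, was present in 6 of the 14 H2B and 6 of the 17 H2A promoters, in none of the 12 H4, 10 H3 and 5 H1 promoters, and in 1.81% of all. H2A and H2B genes are often divergent pairs that share 1 promoter, so these counts are not independent. Promoter entries matched 93 of the 102 members. A match is a description of letters and not a binding site.

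Clustered H3 genes did not move together. H3c14 (older symbol Hist2h3c1, chr3:96246685-96248509, plus strand), which encodes H3.2, had 5.91, 7.91, 5.38 and 4.94 CPM in Ad-GFP, against 8.84, 9.88, 9.47 and 10.6 CPM in Ad-Cre. All Ad-Cre libraries were higher, and H3c14 rose to 160% of Ad-GFP (interval 136% to 189%, adjusted p = 4.05e-05). H3c3 (Hist1h3c) had 0.745, 0.387, 1.06 and 0.75 CPM in Ad-GFP, against 0.671, 0.252, 0.144 and 0.317 CPM in Ad-Cre. These groups overlapped, and H3c3 fell to 46.0% (interval 25.5% to 82.7%, adjusted p = 0.0316). The H3c3 call did not hold without Ad-GFP replicate 1, 3 or 4 or Ad-Cre replicate 2, 3 or 4, with adjusted p-values of 0.0615 to 0.138.

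The exons of H3c14 lie wholly within those of Gm20634, a same-strand gene of GENCODE M21 that also covers the neighbouring H2ac18, so reads of the 2 loci's joint transcript and of H3c14 cannot be told apart. Gm20634 was not analysed here. The near copy H3c15 (63.5% of its 50-base words also occur in other genes, foremost H3c14) had 2.75 ± 0.612 CPM in Ad-GFP, against 2.88 ± 0.267 in Ad-Cre (adjusted p = 0.776). Summing H3c14 and H3c15 gave 8.43, 10.3, 9.04 and 7.38 CPM in Ad-GFP, against 11.4, 12.7, 12.7 and 13.5 CPM in Ad-Cre. The summed copies were higher in every Ad-Cre library (log2 ratio of means 0.52, exact two-sided permutation p = 0.0286). That p-value is the smallest that 4 against 4 allows. The sum was formed after both values were seen, and H3c14 holds most of its change, so it is no separate support. The 12 clustered H3 genes summed to 121.6% of the Ad-GFP mean in CPM, with separate groups, but to 105.8% in FPKM, with overlapping groups. Without H3c14 the CPM sum was 88.4% and the FPKM sum 86.0%, both with overlapping groups.

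**Figure D4:**
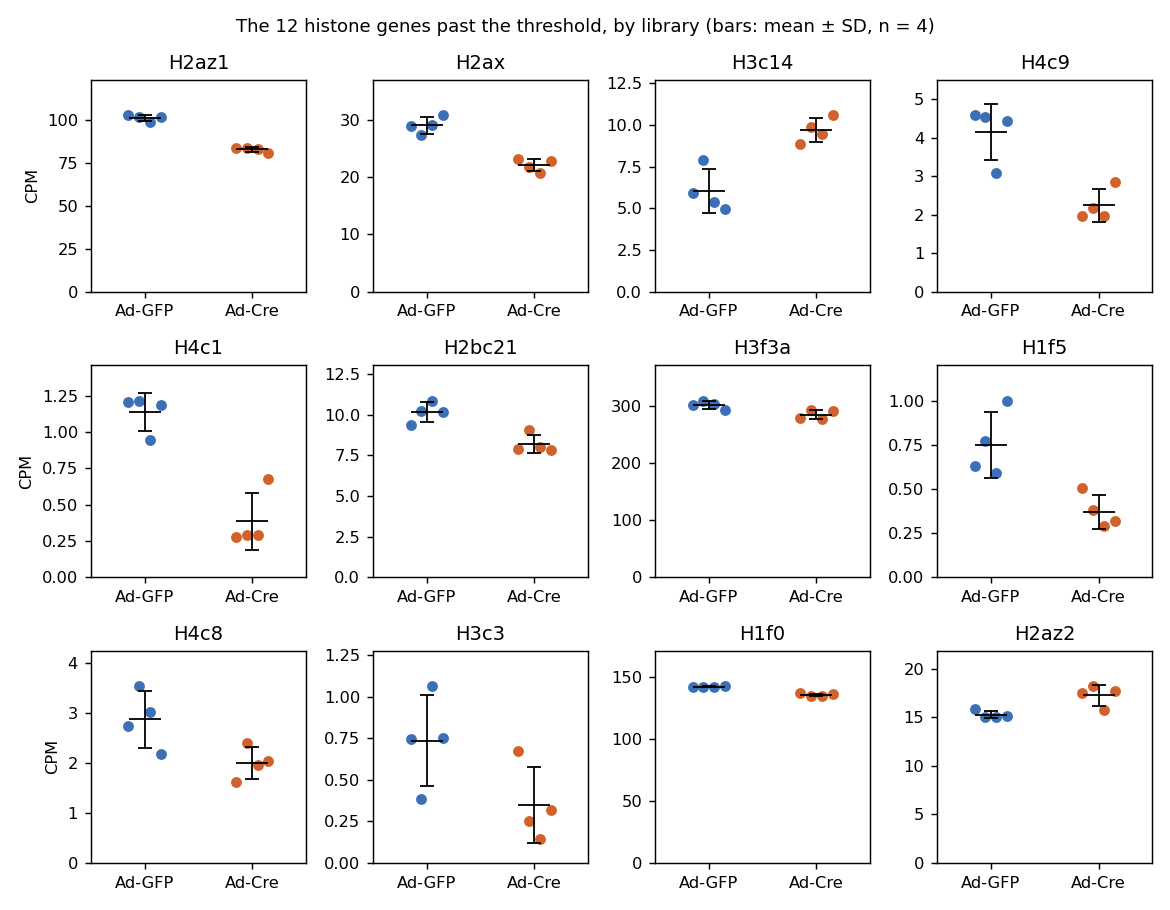
CPM in each library of the 12 histone genes with an adjusted p under 0.05, each panel with its own axis from 0, points for libraries and bars for the mean ± SD of 4 libraries. H3c14 and H2az2 are higher in Ad-Cre and the other 10 lower, and the groups overlap for H4c8, H3c3 and H2az2.

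Clustered H2A genes had 0 calls among 5 tested genes by edgeR's adjusted p, where 40.3% of all tested genes passed. At an unadjusted p under 0.05 edgeR gave 1 (H2aw), while DESeq2 called 0 and limma-voom 1 (H2ac19) after adjustment. H2ac18 and H2ac19 (H2A type 2-A) lie beside H3c14 and H3c15 on chromosome 3, and all 50-base words of H2ac19 also occur in H2ac18, so their split is uncertain. On the opposite strand, Gm20633 covers all 586 exon bases of H2ac18 and Gm20632 all 528 of H2ac19. Their counts could therefore hold reads of those genes if counting did not use strand. H2ac18 had 10.38, 12.44, 9.63 and 12.01 CPM in Ad-GFP, against 14.33, 10.26, 13.89 and 13.004 CPM in Ad-Cre (adjusted p = 0.111). H2ac19 had 2.58, 2.60, 7.74 and 1.63 CPM in Ad-GFP, against 5.48, 6.35, 4.85 and 4.03 CPM in Ad-Cre (adjusted p = 0.131). Both passed the test under some other settings. H2ac19 passed without Ad-GFP replicate 3, which lay above all others (log2 fold change 1.178, adjusted p = 3.12e-05). With all libraries it passed with no filter and with limma-voom (adjusted p = 0.0311 and 0.0263). H2ac18 passed without Ad-Cre replicate 2 (log2 fold change 0.30, adjusted p = 0.0102). Their summed CPM was 14.8 ± 1.95 in Ad-GFP and 18.1 ± 1.49 in Ad-Cre (exact two-sided permutation p = 0.0857). H2aw (older symbol Hist3h2a), which shares 708 exonic bases with Trim17 on the same strand, had 26.8 ± 1.53 and 29.0 ± 0.868 CPM (adjusted p = 0.0839).

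Of 6 tested clustered H2B genes, 1 passed, against 40.3% of all tested genes. H2bc21 (older symbol Hist2h2be, chr3:96221119-96223738, plus strand), known to be transcribed also in non-dividing cells, had 9.40, 10.2, 10.9 and 10.2 CPM in Ad-GFP, against 7.89, 9.04, 8.03 and 7.84 CPM in Ad-Cre. The groups did not overlap, and H2bc21 fell to 80.8% (interval 71.1% to 91.8%, adjusted p = 0.0079). None of its 50-base words occurs in another gene. The abundant H2bc4 had 70.3, 63.5, 74.1 and 64.3 CPM in Ad-GFP, against 71.7, 62.7, 72.9 and 69.5 CPM in Ad-Cre. The groups overlapped throughout, and the interval of 94.8% to 108.7% limits any difference to within 10% (adjusted p = 0.752).

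Of 4 tested clustered H1 genes, 1 passed, against 40.3% of all tested genes. This gene, H1f5 (H1.5, older symbol Hist1h1b), had 0.631, 0.774, 0.591 and 1.0 CPM in Ad-GFP, against 0.504, 0.378, 0.288 and 0.317 CPM in Ad-Cre. The groups were apart at these low levels, and H1f5 fell to 49.7% (interval 30.4% to 81.1%, adjusted p = 0.0209). The call was lost without Ad-GFP replicate 4 or Ad-Cre replicate 3 or 4 (adjusted p = 0.0844, 0.0585 and 0.0555). The abundant H1f2 had 154.5, 162.5, 160.3 and 173.6 CPM in Ad-GFP, against 163.6, 148, 170.2 and 149.4 CPM in Ad-Cre, with overlapping groups and an interval of 91.7% to 102.4% (adjusted p = 0.369). H1f3 and H1f4 had log2 fold changes of -0.36 and -0.39 and did not pass (adjusted p = 0.0548 and 0.0774). H1f3 passed without Ad-GFP replicate 3 or Ad-Cre replicate 2 or 3 (adjusted p = 0.035, 0.0213 and 0.0375), and with upper-quartile scaling or no filter (0.0448 and 0.0396). H1f4 passed after thinning to equal totals and with limma on log2(FPKM + 1) or log2(FPKM + 0.1) (adjusted p = 0.0493, 0.0265 and 0.0373), and it shares 496 exonic bases with H2bc6 on the same strand.

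The total over the clustered genes differed by less than the spread between libraries. All 64 clustered genes gave a sum of 327 ± 7.03 CPM in Ad-GFP, against 321 ± 15.4 in Ad-Cre, with overlapping groups and a ratio of 98.2%. Without H1f2 and H2bc4 the sums were 96.3 ± 2.30 and 94.1 ± 0.843 CPM, again overlapping. The 8 replacement genes summed to 1174 ± 15.5 CPM in Ad-GFP, against 1123 ± 16.5 CPM in Ad-Cre, a ratio of 95.7% with separate groups.

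**Figure D5:**
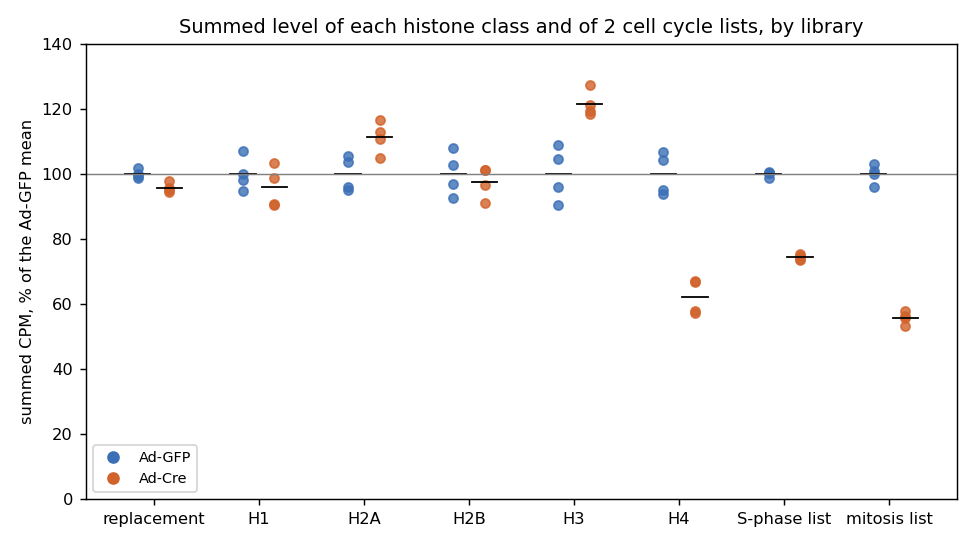
Summed CPM of each histone class and of the S-phase and mitosis gene lists in every library, as a percentage of the Ad-GFP mean, with points for libraries and lines for group means. The H4 genes at 62.2% lie between the S-phase list at 74.4% and the mitosis list at 55.8%. H1 and H2B stay near 100%, while H2A at 111.3% (groups overlapping) and H3 at 121.6% (groups separate) lie above it.

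Genes of the machinery around histones were counted from lists. Of 27 S-phase genes, edgeR called 21 lower and 0 higher (1 higher at an unadjusted p under 0.05, and 0 after adjustment with DESeq2 or limma-voom), where 20.5% of all tested genes were lower and 19.8% higher. Those that fell included Mcm6 and Mcm4, subunits of the replicative helicase, and Rrm1 of ribonucleotide reductase (log2 fold changes -0.69, -0.64 and -0.58). All 15 mitosis genes fell, against the same 20.5%, with Mki67 at -0.88, Top2a at -0.88 and Ccna2 at -1.07. The median log2 fold change was -0.46 over the S-phase and -0.80 over the mitosis genes, against -0.35 over the 25 tested clustered histone genes.

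Of 19 genes for histone transcription and mRNA processing, 2 fell and 2 rose, which is under the background share of 40.3%. Slbp fell, with 36.3 ± 1.04 CPM in Ad-GFP, against 30.1 ± 0.680 in Ad-Cre (adjusted p = 4.88e-05), as did Sympk, a scaffold of the cleavage complex, at 90.3% of Ad-GFP. Ncbp2, the small cap-binding subunit, rose to 113%. Npat, the co-activator of clustered histone genes, had a log2 fold change of -0.054 (adjusted p = 0.188).

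Of 34 histone chaperone and exchange genes, 10 fell and 6 rose, where 20.5% of all tested genes were lower and 19.8% higher. Those of smallest p were Nap1l1, a chaperone of H2A and H2B, at 86.8% of Ad-GFP, Dnajc9, a co-chaperone of H3 and H4, at 73.4%, and Atrx, which places H3.3 with DAXX, at 110%. The Atrx call was lost with limma on the FPKM scales (adjusted p = 0.0513 and 0.0521). The members that fell also included Chaf1a and Chaf1b, subunits of the replication-coupled H3-H4 chaperone CAF-1, and Hira, of an H3.3 chaperone complex (chosen after their values were seen). Of the variant genes outside the name rule, Cenpa, the centromeric H3, fell from 3.0 ± 0.501 to 1.84 ± 0.192 CPM (adjusted p = 0.0025, but 0.0655 and 0.0583 with limma on the FPKM scales), and the macroH2A genes Macroh2a1 and Macroh2a2 did not pass (adjusted p = 0.585 and 0.153).

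The authors' deposited table lists an FDR under 0.05 for 8 members, 7 lower and 1 higher. The share of all genes under that FDR was not taken, so this count has no background beside it. It rests on the same libraries and is no separate evidence. In the authors' deposited table the log2 fold changes are -0.31 for H2az1, -0.41 for H2ax, 0.66 for H3c14, -0.91 for H4c9 and -1.57 for H4c1. The authors' deposited table also lists H4c4, which had too few counts for the test used here, at -1.93 (FDR 0.0358). H4c4 had 5, 9, 7 and 9 counts in the Ad-GFP and 2, 4, 1 and 3 counts in the Ad-Cre libraries, and it was named after its values were seen.

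Some facts of the whole series bear on these values. Library totals were 15879244 to 17930632 counts in Ad-GFP and 18006938 to 23940043 in Ad-Cre, so every Ad-Cre library was deeper. Suv39h1 had 29.0, 27.8, 29.3 and 29.6 CPM in Ad-GFP, against 25.3, 22.8, 21.6 and 22.6 CPM in Ad-Cre, with groups apart and the Ad-Cre level at 79.6% (adjusted p = 3.29e-05). No label names a deleted part, so reads outside it could not be set apart. The fibroblast label was only weakly borne out. The summed level of 6 epithelial markers was 3849 to 4025 CPM in Ad-GFP and 3430 to 3498 CPM in Ad-Cre. The 8 fibroblast markers summed to less, 677 to 724 CPM in Ad-GFP and 428 to 494 CPM in Ad-Cre. Col1a1, Col1a2 and Vim, at 207, 194 and 252 CPM in Ad-GFP, made up most of that sum. Pdgfrb stood at 28.0, Thy1 at 7.19, Pdgfra at 5.14 and Dcn at 4.19 CPM in Ad-GFP, and Lum was too low to test. Krt8 and Cdh1 stood at 1504 and 700 CPM in Ad-GFP. Of the 6 epithelial markers, 2 were higher and 3 lower in Ad-Cre, where 19.8% of all tested genes were higher and 20.5% lower. Lower calls were also made for 4 of the 7 tested fibroblast markers and 5 of the 6 macrophage markers, with 0 higher in either list. The 6 endothelial markers, all lower, summed to 102 to 108 and 47.5 to 54.7 CPM, and the 6 macrophage markers to 215 to 250 and 191 to 203 CPM. Of 26 such markers, 0 were at 0 in all libraries. In bulk RNA, fewer cells of a type and less RNA per cell cannot be told apart, and the part of these shifts, and of the cell cycle lists, in the histone values was not tested.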

How the data were processed

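RNA sequencing of 8 libraries, 4 Ad-GFP and 4 Ad-Cre, was analysed from 1 deposited table. It holds whole-number read counts and FPKM values per gene and library, both as deposited, and the authors' log2 fold change and p-values with FDR, whose test is not named in the table. The submitters' processing notes name GRCm38 and mm10. No source used here names the aligner, the counter or its strand setting. The length that a gene's count and FPKM together imply varied between libraries by 1.55% (coefficient of variation) for H3f3a and 6.06% for H2az2, so counts of genes with several isoforms may be rounded estimates.

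Counts were tested with edgeR 4.0.16 in R 4.3.3 (filterByExpr, TMM factors of 0.992 to 1.01, quasi-likelihood F-test, two-sided, Benjamini-Hochberg over 13337 genes, threshold 0.05). CPM values are per TMM-scaled total and SDs are over 4 libraries. Single values were tested by exact permutation (scipy 1.17.1). Ad-Cre and Ad-GFP were compared under 18 alternatives, among them DESeq2 1.42.0, limma 3.58.1 and leaving out each library. No 2 libraries of a group agreed within sampling noise (chi-square per degree of freedom of at least 1.83). The fit was tested on simulated data for Ad-Cre against Ad-GFP, in which 200 of 13337 genes differed. It called 64.2% at a 1.25-fold, 82.1% at a 1.5-fold and 95.5% at a 2-fold difference, and 6.4% of the calls were false. The changed genes were drawn from all levels, and in the real data 40.3% of genes passed. These rates therefore do not give the power or false share for the histone genes. At these depths the low counts of most clustered genes limit the precision.

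Gene models came from GENCODE M21 (GRCm38) and promoters from RefSeq (GRCm38.p6). The members and lists were chosen with earlier results of these data known. Genes named by rule were the 10 tested members of smallest p, the 2 of highest FPKM in each class, a set of known variants, and from each related list the 3 of smallest p with Slbp and Npat, besides Suv39h1 and Cenpa. Others were named after their values were seen: H4c4, H4c11, H4c14, H1f3, H2ac19, Chaf1a, Chaf1b, Hira and the macroH2A genes.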

Additional observations from a re-analysis of the deposited data

Results flagged for a closer look

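In 66 sets of 4 libraries (33 tested histone genes, 2 groups), 9 values were flagged. A value was flagged when its gap to the nearest library made up most of the range of its set. Chance gives about 1 in 20 for normal values, and this rate was not checked for low counts. The rule also flags small differences where the other 3 lie close together. In Ad-GFP, H3c2 was flagged at 25 counts (others 28 to 30) and H4c1 at 16 counts (others 19 to 22). H2ac19 stood further apart, at 131 counts (others 26 to 47). Of the 9, 4 were in Ad-GFP replicate 3. There H2ac19 was high at 7.74 CPM (others 1.63 to 2.60), as was H3c15 at 3.66 CPM (others 2.38 to 2.52), while H4c9 was low at 3.07 CPM (others 4.44 to 4.59), as was H4c1 at 0.946 CPM (others 1.19 to 1.22). H2az2 was high in Ad-GFP replicate 1 at 15.8 CPM (others 15.04 to 15.13) and H3c2 low in Ad-GFP replicate 2 at 1.38 CPM (others 1.72 to 1.77). H4c1 was high in Ad-Cre replicate 4 at 0.680 CPM (others 0.280 to 0.294). H2bc21 at 9.04 CPM (others 7.84 to 8.03) and H4c14 at 1.26 CPM (others 0.727 to 0.817) were high in Ad-Cre replicate 2.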

How the results depend on the processing

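Of the 12 called histone genes, 7 (H2az1, H2ax, H3c14, H4c9, H4c1, H2bc21 and H3f3a) kept direction and call under each of the 18 alternatives in which they were tested. The other 5 (H1f5, H4c8, H3c3, H1f0 and H2az2) each lost the call under DESeq2 and with some single libraries left out, as given above. The call held in 11 of 16 alternatives for H1f5, 11 of 17 for H4c8 and 8 of 17 for H3c3. It held in 10 of 18 for H1f0 and 7 of 18 for H2az2. Counting DESeq2, the settings that kept all libraries dropped H1f5 and H1f0 in 2 cases each and H3c3 in 3. The count of histone genes lower, 10, was 6 with DESeq2 and 5 with a filter at a mean of 5 CPM, which tests fewer genes, 12 with no filter, 11 with upper-quartile scaling and 8 to 10 with 1 library left out. The count higher, 2, was 1 with upper-quartile scaling, the 5 CPM filter, DESeq2 and limma on log2(FPKM + 1) or log2(FPKM + 0.1), 3 with no filter, limma-voom or the replicate block, and 1 to 2 with 1 library left out. The summed replacement genes stood at 93.2% of Ad-GFP in FPKM against 95.7% in CPM. The sums with 1 library left out were 94.9% to 96.3% for replacement and 96.6% to 99.8% for clustered genes. The same settings gave 4816 to 5084 changed genes in all, and 3 to 5 for histone mRNA processing, 11 to 16 for chaperones, 20 to 21 for S phase and 15 for mitosis. Signs of log2 fold changes near 0 turned for H2bc4 (-0.011 to 0.066) and H1f10 (-0.099 to 0.24) with 1 library left out, and for H3f3b, which was 0.0015 without a filter and -0.020 to 0.0097 with 1 library left out. The cause was not tested. Replicate numbers are shared between groups, and the labels state no pairing. Deviations of same-numbered libraries from their group means correlated weakly but above 0 (0.045, 0.129, 0.063 and 0.014). Differently numbered pairs ran from -0.168 to 0.121, so these values do not settle whether the libraries were paired. A fit with the replicate number as a block gave 3 histone genes higher and 10 lower, and 5390 changed genes in all, with H2ac19 the added one (adjusted p = 0.0347). Copies such as H2ac18 and H2ac19 were summed as an alternative chosen after seeing the data. Counts under about 1 CPM limit the H1, H3 and H4 values.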
